A study of Rattus norvegicus with 18 samples.

Results

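The genes described here are 10 components of macroautophagy, chosen by name for their established roles, with earlier results of these data known. They are the ubiquitin-like genes Gabarap, Gabarapl1, Gabarapl2, Map1lc3a and Map1lc3b, the cargo receptor gene Sqstm1, and the core genes Becn1, Ulk1, Atg5 and Atg7. All 10 were found once each among the 18923 genes of the deposited gene table, and all 10 passed the filter on low values (FPKM of at least 1 in at least 3 libraries). They were measured in the nucleus pulposus, the gel-like centre of the intervertebral disc, of rats aged 2, 10 or 20 months, in a study of N6-methyladenosine on RNA. The groups differ by age alone in the labels, which name no treatment, genotype, strain or sex, and each age has 3 input libraries of poly(A) RNA without immunoprecipitation. The 9 immunoprecipitated libraries are not analysed here. FPKM counts the fragments of a gene relative to its length in kilobases and to the size of the library. The labels tie no sample to an animal. The p-values therefore measure only the spread between these samples, which may be technical.

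Macroautophagy encloses cytoplasm in a double membrane, the autophagosome, and delivers it to the lysosome. The ULK1 kinase complex starts the process, the Beclin 1 lipid kinase complex marks the membrane, and ATG7 and ATG5 take part in joining ubiquitin-like proteins to a membrane lipid, where they bind cargo receptors such as p62. The nucleus pulposus is a tissue with few blood vessels and little oxygen, in which autophagy has been studied as a response to nutrient shortage and ageing.

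The 2-month libraries held 4.77 to 5.04 gigabases, the 10-month libraries 4.35 to 4.74 and the 20-month libraries 3.53 to 4.90, as computed from the ratio of FPKM to coverage. Read lengths and composition set the oldest libraries apart: the commonest read length was 132 bases at 2 and 10 months and 141 at 20 months, and bases on listed transcripts made up 85.6 to 86.1% of the total at the younger ages against 80.1 to 80.9% at 20 months. The share of summed FPKM in ribosomal protein genes was 12.8 to 13.1% in the youngest libraries, 15.2 to 15.3% in the middle group and 19.1 to 19.8% in the oldest. Mitochondrial genes made up 0.456 to 0.690% at the younger ages and 0.0868 to 0.111% at 20 months. The part of either share in the changes below was not tested. Age and library preparation or sequencing cannot be told apart at 20 months for this reason. The median log2 change of all 11708 tested genes was 0.04 at 10 against 2 months, -0.20 at 20 against 2 months and -0.23 at 20 against 10 months. Results at 20 months are therefore given as deposited and also after median-of-ratios scaling, which brings the median of all genes to about 0. Of 14 listed nucleus pulposus and notochord markers in the table, 12 had a mean FPKM of at least 1, and their sum was 30910 to 32250, 26730 to 27040 and 26630 to 27960 FPKM at the 3 ages in order, while Pax1 and Foxf1 stayed under 0.5 FPKM in each library. Ca3 was the largest part of the sum, with means of 9992, 9507 and 10028 FPKM, and single markers moved both ways. Krt19 went from 5268 over 3728 to 3336 FPKM and Ncam1 from 17.1 over 7.99 to 5.21. Krt18 went from 1229 over 886 to 1625 FPKM and Cytl1 from 3.36 over 17.6 to 14.4. The 9 skeletal muscle markers summed to 40.4 to 42.9 FPKM in the 2-month, 41.1 to 42.2 in the 10-month and 20.98 to 294.8 in the 20-month libraries, the highest being 20-month replicate 3, with Acta1 at 92.5 FPKM. The like sums at 2 and 10 months hide opposite moves. Mean Des rose from 12.4 to 21.0 FPKM, while Acta1 fell from 8.99 to 4.95, Mylpf from 8.48 to 6.48 and Mb from 4.29 to 3.04. In 20-month replicates 1 and 2 Des made up most of the sum, at 18.5 and 16.4 FPKM, with Acta1 at 1.73 and 0.760. The 6 red blood cell markers summed to 82.9 to 93.2, 9.57 to 10.6 and 36.6 to 42.5 FPKM. The part of these markers in the results was not tested beyond the refits without single libraries, and in bulk tissue fewer cells of a type and less RNA per cell cannot be told apart.

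The stretches upstream of the gene starts are shown for 3 genes: for Gabarap and Gabarapl1, whose RNAs moved in opposite directions with age, and for Atg5, the single gene of the set whose stretch held an E-box. They are the 250 bases before the RefSeq start in build GRCr8, on the plus strand, and capitals mark a motif match. The Gabarap stretch is chr10:55213215-55213464, that of Gabarapl1 is chr4:164666082-164666331 and that of Atg5 is chr20:49380585-49380834.
Gabarap: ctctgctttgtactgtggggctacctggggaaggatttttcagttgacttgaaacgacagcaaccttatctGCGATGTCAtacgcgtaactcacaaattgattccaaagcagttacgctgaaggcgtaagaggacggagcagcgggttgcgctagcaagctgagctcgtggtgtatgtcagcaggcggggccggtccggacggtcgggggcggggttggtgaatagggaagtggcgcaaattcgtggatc
Gabarapl1: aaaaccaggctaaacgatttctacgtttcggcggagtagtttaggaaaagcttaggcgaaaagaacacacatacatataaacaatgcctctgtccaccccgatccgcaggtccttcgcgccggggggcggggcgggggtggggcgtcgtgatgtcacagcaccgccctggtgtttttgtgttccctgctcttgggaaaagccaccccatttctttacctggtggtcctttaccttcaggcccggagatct
Atg5: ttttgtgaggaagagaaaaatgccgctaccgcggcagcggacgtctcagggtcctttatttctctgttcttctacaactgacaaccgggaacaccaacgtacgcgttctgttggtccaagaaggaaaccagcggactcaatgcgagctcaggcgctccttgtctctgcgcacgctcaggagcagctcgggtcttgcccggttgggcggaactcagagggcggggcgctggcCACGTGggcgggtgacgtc

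Promoters of 8 of the 10 genes were matched in the RefSeq table. Map1lc3a and Becn1 were not. The E-box CACGTG, the core of sites bound by TFEB and related factors, was in 1 of these 8 stretches, that of Atg5, where it begins 19 bases before the start, and in 5.593% of 33469 rat promoters of the same length. The longer CLEAR element of lysosomal genes, searched as an E-box with fixed flanking bases, was in 0 of the 8 and in 0.203% of all promoters. The antioxidant response element core TGACNNNGC, bound by NRF2, was in 1 of the 8, that of Gabarap, whose minus-strand match reads GCGATGTCA and begins 179 bases before the start. That core was in 10.078% of all promoters. The forkhead motif GTAAACA was in 0 of the 8 and in 3.215% of all promoters. Both strands were searched, and a match is a description of letters, not of a bound site.

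**Figure D1:**
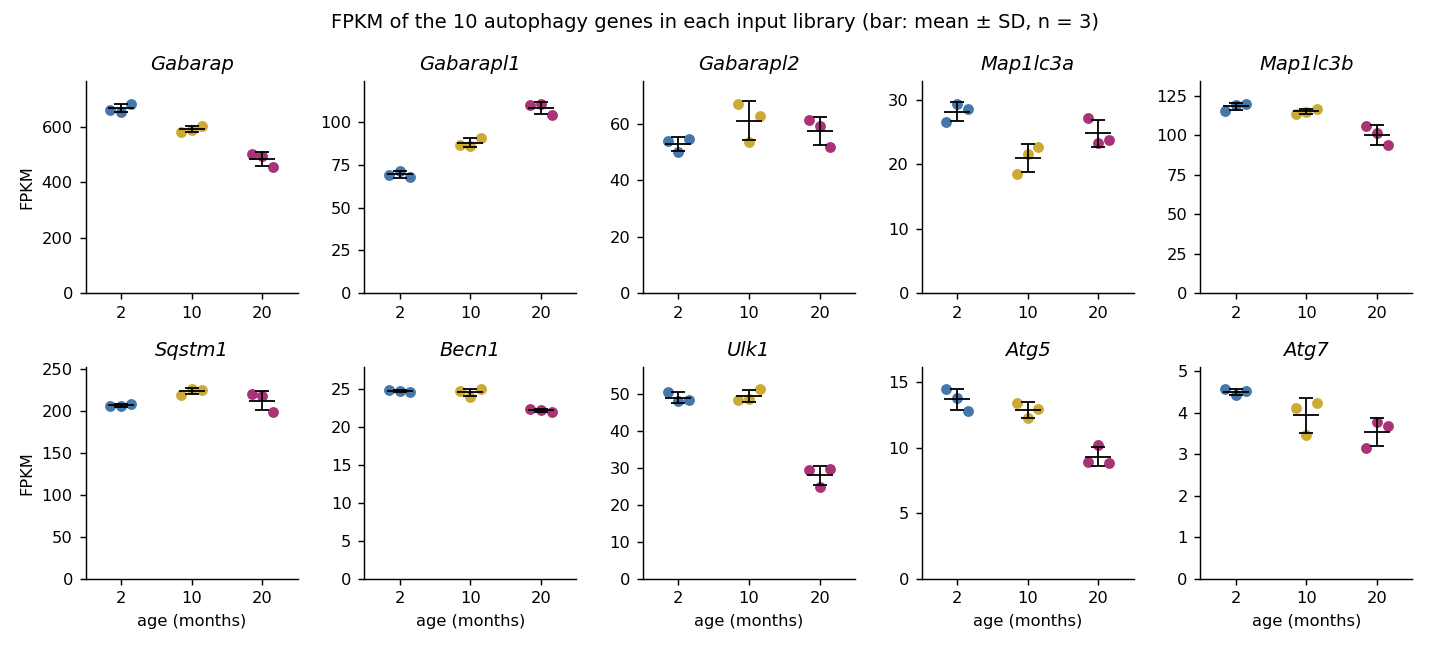
FPKM (vertical axis, from 0, a separate scale for each gene) of the 10 autophagy genes in each input library by age in months, with points for single libraries and bars for the mean ± SD of 3 libraries. Gabarap steps down from 666 to 483 FPKM and Gabarapl1 steps up from 69.4 to 108 FPKM with no overlap between ages, while Ulk1 drops between 10 and 20 months.

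Gabarapl1 rose at each age step, Gabarap fell at each (its last step as deposited only), and the other 3 ubiquitin-like genes of the set did neither. Gabarapl1 (chr4:163293724-163302858, plus strand, 4 exons, in the coordinates of the deposited table) had 69.2, 71.4 and 67.6 FPKM in the 2-month libraries, 86.7, 86.2 and 90.7 FPKM at 10 months and 109.6, 110.6 and 104.2 FPKM at 20 months. Every 10-month library was above every 2-month library, and every 20-month library was above both. Its means were 69.4 ± 1.88, 87.9 ± 2.44 and 108 ± 3.45 FPKM (SD, n = 3 each). On the log2(FPKM + 1) scale, which is used for all changes below, the difference was 0.34 ± 0.04 (SE) at 10 against 2 months (limma with Benjamini-Hochberg adjustment over all tested genes, adjusted p = 2.78e-04). It was 0.63 ± 0.04 at 20 against 2 months (limma adjusted p = 1.04e-06) as deposited, and median-of-ratios scaling gave 0.86. From 10 to 20 months it was 0.30 ± 0.04 (limma adjusted p = 1.31e-04), and 0.56 after that scaling. Gabarapl1 stayed called in all 3 comparisons under each of the 21 alternatives run, single libraries left out included. As deposited, levels that rise at both steps with no overlap between ages were found in 6.58% of all tested genes, and among the 10 genes in Gabarapl1 alone. After median-of-ratios scaling Sqstm1 rose in this way as well, and the share of all tested genes was 11.4%. For 2 ages compared, lack of overlap was common. As deposited, 32.3% of all tested genes were higher and 21.5% lower in this way at 10 against 2 months. The shares were 19.4% and 51% at 20 against 2 months, and 12.6% and 55.3% at 20 against 10 months. After scaling the lower shares at 20 months were 33.7% and 29.4%. These shares are the background for the separations described below.

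Gabarap (chr10:56601288-56604221, plus strand, 4 exons) was the most abundant of the set, ranking 118th by mean FPKM in the gene table. Its libraries gave 662, 654 and 682 FPKM at 2 months, 579.8, 589 and 601 at 10 months, and 501, 493 and 456 at 20 months. As deposited the ages did not overlap, and the level stepped down both times, a pattern found in 14.6% of all tested genes and in no other gene of the set. After median-of-ratios scaling the 10- and 20-month libraries overlapped. The means were 666 ± 14.6, 590.2 ± 10.8 and 483 ± 24.0 FPKM (SD, n = 3 each). The log2 difference was -0.17 ± 0.04 at 10 against 2 months (limma adjusted p = 0.0101). At 20 against 2 months it was -0.46 ± 0.04 (limma adjusted p = 8.73e-06) as deposited and -0.24 (adjusted p = 5.51e-04) after median-of-ratios scaling. The step from 10 to 20 months was -0.29 ± 0.04 as deposited (limma adjusted p = 2.19e-04) but -0.02 (adjusted p = 0.620) after that scaling, so the call of this step is lost when libraries are set to the same median gene.

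Since a ratio of 2 genes within a library is free of the library's scaling, Gabarapl1 was also set against Gabarap directly. The ratio of their FPKM lay between 0.0991 and 0.109 in the youngest libraries, between 0.146 and 0.151 in the middle group and between 0.219 and 0.229 in the oldest. Its mean was 0.104 ± 0.00501, 0.149 ± 0.00236 and 0.224 ± 0.00479 (SD, n = 3 each), with wide gaps between ages and the same order in each library. The ratio shows unequal change of the 2 genes and does not say which of them moved.

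Gabarapl2 (chr19:44164935-44175770, plus strand, 4 exons), also called GATE-16 and known for work in Golgi traffic and autophagosome maturation, had 54.0, 50.02 and 54.8 FPKM at 2 months, 67.2, 53.7 and 62.7 at 10 months, and 61.4, 59.4 and 52.0 at 20 months. The ages overlapped, largely through 10-month replicate 2 and 20-month replicate 3. No difference passed the test as deposited: 0.20 ± 0.09 at 10 against 2 months (limma adjusted p = 0.116, or 0.0316 without 10-month replicate 2), 0.12 ± 0.09 at 20 against 2 months (adjusted p = 0.260) and -0.08 ± 0.09 at 20 against 10 months (adjusted p = 0.428). After median-of-ratios scaling the difference at 20 against 2 months was 0.34 (limma adjusted p = 0.00705), and that at 20 against 10 months turned to 0.18 (adjusted p = 0.111).

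Map1lc3a and Map1lc3b encode LC3A and LC3B, the latter being the usual marker protein of autophagosomes. Map1lc3a (chr3:150801289-150802935, plus strand, 4 exons) had 26.5, 29.4 and 28.5 FPKM at 2 months, 18.5, 21.5 and 22.7 at 10 months, and 27.2, 23.3 and 23.8 at 20 months. It was lowest at 10 months, where no library reached those of either other age, and the 2- and 20-month libraries overlapped. The log2 difference at 10 against 2 months was -0.42 ± 0.08 (limma adjusted p = 0.00577) and kept its call under all 21 alternatives. The difference at 20 against 10 months was 0.24 ± 0.08 (limma adjusted p = 0.0321) as deposited and 0.49 (adjusted p = 9.35e-04) after median-of-ratios scaling. As deposited it was not called without 10-month replicate 1 (adjusted p = 0.109), without 20-month replicate 1 (0.102) or with the replicate number as a block (0.0550). The difference at 20 against 2 months was -0.18 ± 0.08 (limma adjusted p = 0.0832) as deposited and 0.04 after median-of-ratios scaling. Without 10-month replicate 1 or 20-month replicate 1 it was called lower (adjusted p = 0.0426 and 0.0280).

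Map1lc3b (chr19:53629779-53646058, plus strand) had 116, 119 and 120.1 FPKM at 2 months, 114, 115 and 117 at 10 months, and 106, 101 and 93.8 at 20 months. The libraries of 2 and 10 months overlapped. Those of 20 months were below both, as in 51% of all tested genes against 2 months and 55.3% against 10 months. The log2 difference was -0.04 ± 0.04 at 10 against 2 months (limma adjusted p = 0.542), -0.24 ± 0.04 at 20 against 2 months (adjusted p = 0.00109) and -0.20 ± 0.04 at 20 against 10 months (adjusted p = 0.00339). After median-of-ratios scaling the 2 differences at 20 months were -0.01 (adjusted p = 0.800) and 0.06 (adjusted p = 0.212), so neither call remained and the second changed direction. The fall of Map1lc3b as deposited was thus about as large as the shift of the median gene.

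Sqstm1 (chr10:35704730-35716294, minus strand) encodes p62, which carries ubiquitinated cargo to the autophagosome and is itself degraded by autophagy. It had 205, 205 and 208 FPKM at 2 months, 219, 225 and 225 at 10 months, and 219.5, 217 and 199 at 20 months. The 10-month libraries were all above the 2-month libraries, and 20-month replicate 3 was below both, this being the library with the high muscle markers. The log2 difference at 10 against 2 months was 0.11 ± 0.04 and missed the threshold (limma adjusted p = 0.0591), though it was called in a fit of those 2 ages alone (adjusted p = 0.00461) and in the fits without 20-month replicate 1 (0.0390) or 20-month replicate 3 (0.00697). This difference stayed uncalled in 16 of the 21 alternatives, among them median-of-ratios scaling (0.07, limma adjusted p = 0.172). At 20 against 2 months it was 0.04 ± 0.04 (limma adjusted p = 0.424) as deposited, 0.08 without 20-month replicate 3 (adjusted p = 0.0203) and 0.26 when scaled by median-of-ratios (adjusted p = 2.59e-04). The difference at 20 against 10 months was -0.08 ± 0.04 (limma adjusted p = 0.122, or 0.0480 without 20-month replicate 1) and turned to 0.19 (adjusted p = 0.00263) after that scaling. Relative to Map1lc3b, Sqstm1 was higher at each later age: the ratio of their gene-table FPKM lay between 1.72 and 1.77, then between 1.92 and 1.95, and last between 2.07 and 2.14 in order of age.

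Of the 4 core genes, Ulk1 and Atg5 fell at 20 months under both scalings, while the falls of Becn1 and Atg7 depended on the scaling. Ulk1 (chr12:51908448-51934702, plus strand, 28 exons) encodes the kinase that starts autophagosome formation when mTORC1 is inactive. Its values were 50.6, 48.1 and 48.3 FPKM at 2 months, 48.4, 48.6 and 51.2 at 10 months, and 29.3, 24.9 and 29.6 at 20 months. The libraries of the younger ages overlapped. Each 20-month library was far below both, where 51% of all tested genes were lower without overlap against 2 months and 55.3% against 10 months. The means were 49.0 ± 1.41, 49.4 ± 1.58 and 27.9 ± 2.62 FPKM (SD, n = 3 each). The log2 difference was 0.01 ± 0.06 at 10 against 2 months (limma adjusted p = 0.917). It was -0.79 ± 0.06 at 20 against 2 months (limma adjusted p = 6.01e-06), or -0.57 when scaled by median-of-ratios (adjusted p = 4.37e-05). At 20 against 10 months it was -0.80 ± 0.06 (limma adjusted p = 1.07e-05) and -0.55 after that scaling. Ulk1 has the longest transcript of the set, 4889 bases, and long transcripts were lower at 20 months in general: among genes of 4000 to 5000 bases the median log2 change at 20 against 2 months was -0.26 and 60.9% were called lower, against -0.02 and 28.8% among genes of up to 1000 bases. The part of transcript length in the fall of Ulk1 was not tested.

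Becn1 (chr10:89209940-89225297, minus strand) encodes Beclin 1, a subunit of the class III PI3-kinase complex. It had 24.9, 24.7 and 24.6 FPKM at 2 months, 24.8, 24.0 and 25.0 at 10 months, and 22.4, 22.3 and 22.0 at 20 months. The spread within an age was small. The 20-month libraries were the lowest 3, where 51% of all tested genes were lower without overlap against 2 months and 55.3% against 10 months. As deposited the log2 difference was -0.01 ± 0.03 at 10 against 2 months (limma adjusted p = 0.867), -0.15 ± 0.03 at 20 against 2 months (adjusted p = 0.00282) and -0.14 ± 0.03 at 20 against 10 months (adjusted p = 0.00429). Both differences at 20 months changed direction after median-of-ratios scaling, to 0.07 (adjusted p = 0.0817) and to 0.12 (adjusted p = 0.0142). Whether Becn1 is lower or higher at 20 months is thus set by the scaling.

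Atg5 (chr20:49318308-49393140, plus strand, 6 exons) encodes the partner of ATG12 in the complex that attaches LC3 to lipid. It had 14.4, 13.8 and 12.8 FPKM at 2 months, 13.4, 12.3 and 13.0 at 10 months, and 8.93, 10.2 and 8.86 at 20 months. The younger ages overlapped. The 20-month libraries were below both, as in 51% of all tested genes against 2 months and 55.3% against 10 months. The log2 difference was -0.08 ± 0.07 at 10 against 2 months (limma adjusted p = 0.377), -0.51 ± 0.07 at 20 against 2 months (adjusted p = 1.16e-04) and -0.43 ± 0.07 at 20 against 10 months (adjusted p = 4.33e-04). After median-of-ratios scaling the 2 differences at 20 months were -0.30 (adjusted p = 0.00375) and -0.19 (adjusted p = 0.0446). Atg7 (chr4:146598413-146777124, plus strand, 18 exons) encodes the activating enzyme of both conjugation pathways and was the lowest of the set, resting on an estimated 119 to 264 fragments per library. It had 4.56, 4.42 and 4.53 FPKM at 2 months, 4.11, 3.45 and 4.22 at 10 months, and 3.15, 3.78 and 3.68 at 20 months. The 2-month libraries were above all others, and the 2 later ages overlapped. Its log2 difference was -0.16 ± 0.08 at 10 against 2 months (limma adjusted p = 0.162), -0.28 ± 0.08 at 20 against 2 months (adjusted p = 0.0123) and -0.12 ± 0.08 at 20 against 10 months (adjusted p = 0.221). After median-of-ratios scaling the second was -0.10 (adjusted p = 0.324), and the third turned to 0.09 (adjusted p = 0.396).

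**Figure D2:**
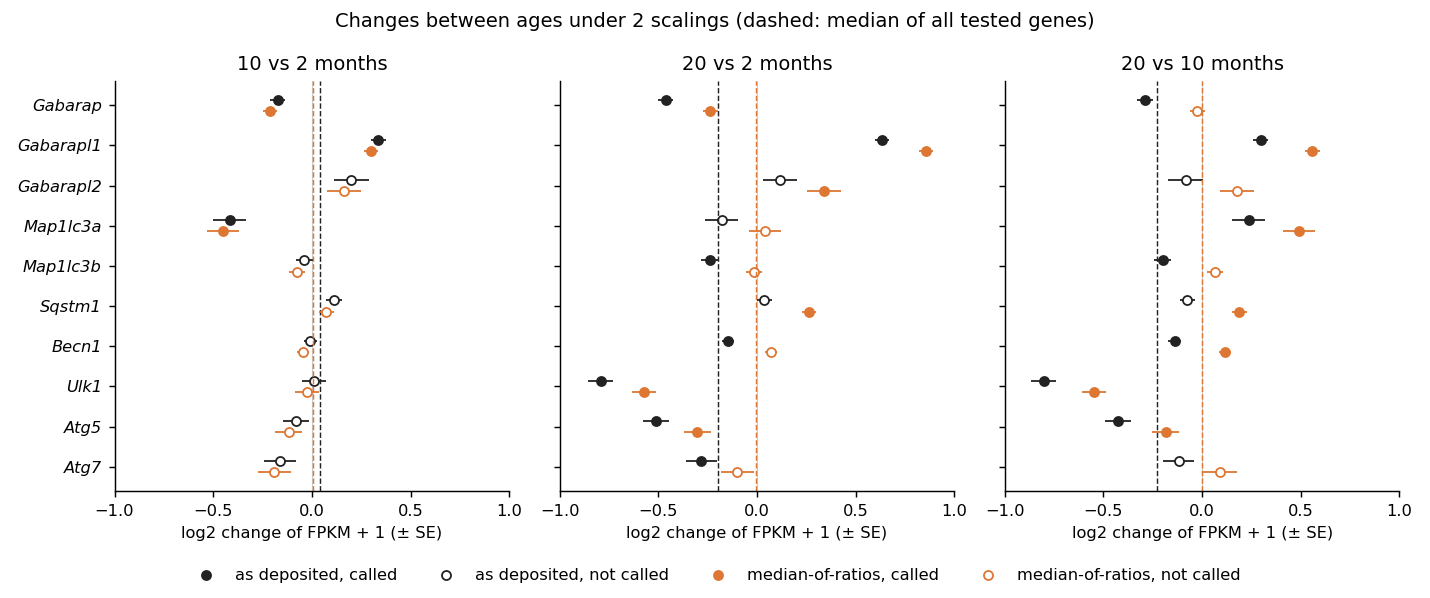
Log2 change of FPKM + 1 (horizontal axis, points with SE bars) of each gene (vertical axis) in the 3 comparisons of ages, as deposited (black) and after median-of-ratios scaling (orange), filled where limma's adjusted p is under 0.05. Dashed lines mark the median of all tested genes: Gabarapl1 lies to the right of it and Ulk1 to the left of it at 20 months under both scalings, while Becn1 changes sides of 0.

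Counted over the set, 3 of 10 genes were called at 10 against 2 months by limma, 1 higher and 2 lower, where 30.3% of all tested genes were called (19% higher and 11.4% lower). At 20 against 2 months 7 were called, 1 higher and 6 lower, where 68.2% of all tested genes were called (18.6% higher and 49.6% lower). After median-of-ratios scaling 3 were called higher and 3 lower, with a background of 62.5% (30.9% and 31.5%). At 20 against 10 months 7 were called, 2 higher and 5 lower, where the background was 64.7% (11.4% higher and 53.3% lower). After that scaling it was 4 higher and 2 lower against 52.5% (26.5% and 26%). As deposited the F test of any age difference called 8 of the 10, all but Gabarapl2 and Sqstm1, where 75.4% of all tested genes were called. After median-of-ratios scaling it called Gabarapl2 (F test adjusted p = 0.0185) and Sqstm1 (6.41e-04) but not Map1lc3b (0.220) and Atg7 (0.166). The background was then 67.1%. These counts are close to the background, so the number of called genes says little about autophagy genes as a set. The set's median log2 change was -0.02, -0.21 and -0.13 in the 3 comparisons in order, beside 0.04, -0.20 and -0.23 for all tested genes.

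Levels are compared between genes by the summed FPKM of their listed isoforms, because the gene table divides Map1lc3b by 1840 bases although its listed transcripts are 853 to 1288 bases long. By these sums Map1lc3b was 255 ± 4.91, 243 ± 4.28 and 208 ± 7.43 FPKM (SD, n = 3 each) at the 3 ages in order. The order of mean levels over the 9 libraries was Gabarap (579.8 FPKM), Map1lc3b (235), Sqstm1 (218), Gabarapl1 (88.5), Gabarapl2 (57.2), Becn1 (46.2), Ulk1 (42.1), Map1lc3a (24.6), Atg5 (12.1) and Atg7 (3.99). Several neighbours in that order were not separated by their spread. At 20 months Map1lc3b (201 to 216 FPKM) and Sqstm1 (203 to 224 FPKM) overlapped. At 2 months Becn1 (46.9 to 48.9 FPKM), Ulk1 (48.1 to 50.6 FPKM) and Gabarapl2 (50.02 to 54.8 FPKM) each overlapped the next. At 20 months Ulk1 had fallen to 24.9 to 29.6 FPKM, into the range of Map1lc3a, at 23.3 to 27.2. RefSeq lists 3 rat pseudogenes named for Gabarap, 3 for Gabarapl2, 3 for Map1lc3b and 1 for Sqstm1, so levels of these 4 genes are uncertain wherever reads of near-identical copies were shared.

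Most of the set was listed with a single transcript, and Becn1, Map1lc3b and Sqstm1 had 6, 3 and 2. The 12-exon transcripts of Becn1, of 2086 and 2107 bases, exchanged places from library to library: the shorter was 13.1 to 73.5% of the summed isoforms and the longer 14.3 to 70.3%. In 10-month replicate 3 the shorter had 35.2 FPKM and the longer 6.86 FPKM, and in 20-month replicate 3 they had 5.64 and 30.3 FPKM. Their sum was far steadier, with 38.2 to 41.9, 40.2 to 42.1 and 35.9 to 37.5 FPKM in order of age. Of these 2 transcripts, limma called 0 for a difference in use between ages (adjusted p = 0.645 and 0.614, unadjusted 0.429 and 0.393), where 8.44% of 2771 tested isoforms were called. Among the 10-month libraries alone the share of the shorter ran from 34.5 to 73.5%.

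Map1lc3b showed a second pattern of this kind. Its 9-exon transcript, which starts upstream of the main one, had 0.583 to 1.47 FPKM at 2 months and in 10-month replicates 1 and 2, and 0.794 FPKM in 20-month replicate 3. In 10-month replicate 3 and in 20-month replicates 1 and 2 it had 25.1, 24.7 and 22.1 FPKM, and the share of the main 5-exon transcript of 853 bases fell to 89.2, 88.2 and 89.0% there, from 98.7 to 99.3% elsewhere. Replicates of 10 months and of 20 months thus differed in the upstream transcript, and no 2-month library had it at that level. Its relation to age was not tested, since its mean share of 3.89% was under the bound of 10%. Sqstm1 was nearly uniform, with its 8-exon transcript of 1989 bases at 99.7 to 99.9% of the sum.

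**Figure D3:**
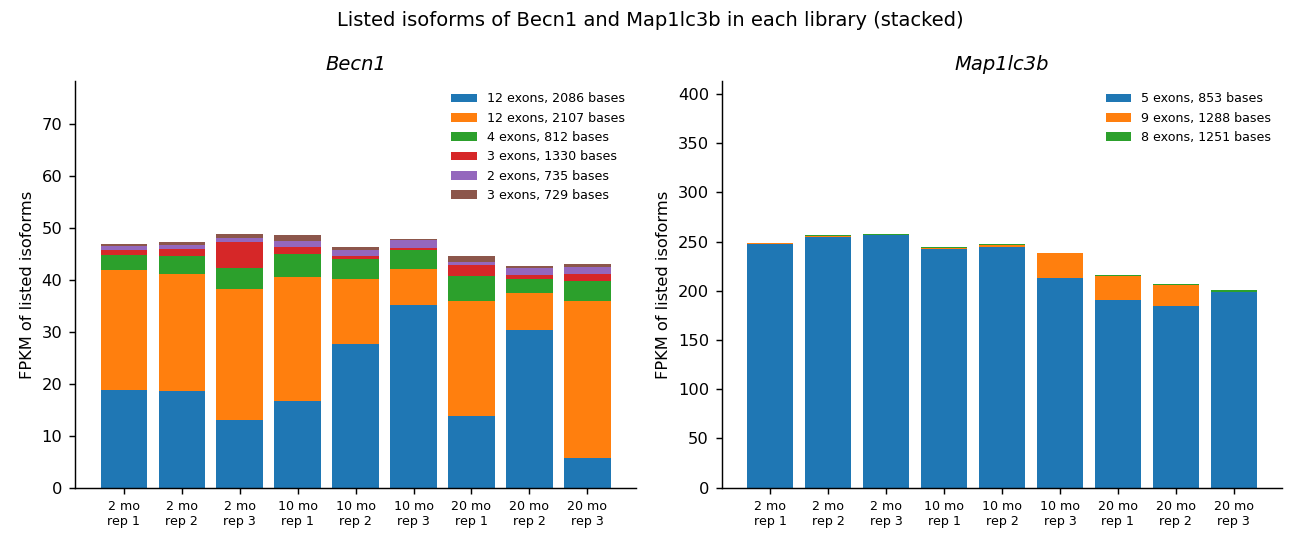
FPKM (vertical axis) of each listed isoform of Becn1 (left) and Map1lc3b (right), stacked in each of the 9 input libraries (horizontal axis), with colours for isoforms by exon number and length in bases. The 2 long Becn1 isoforms swap shares between replicates of an age at a nearly constant sum, and the 9-exon Map1lc3b isoform is visible in 3 libraries, at 22.1 to 25.1 FPKM.

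The genes whose profiles lay nearest to each member were found by the root mean square difference between centred log2(FPKM + 1) profiles over the 9 libraries, among 7067 genes with a mean FPKM of at least 5. The nearest to Gabarap was Arhgdia (difference 0.0230). Second was Actr1a (0.0253), a dynactin subunit, whose mean FPKM was 43.1, 37.5 and 30.4 at the 3 ages. Gabarapl1 lay nearest to Cd302 (0.0297), a C-type lectin, and Cul3 (0.0297), a ubiquitin ligase scaffold. For Ulk1 the nearest gene was Wdfy3 (0.0430), which encodes the autophagy scaffold ALFY and had 13.0, 13.0 and 7.0 FPKM. Second was Helz (0.0501), with 13.2, 12.4 and 6.84 FPKM. Map1lc3b was nearest to Dock11 (0.0128), Sqstm1 to Slk (0.0234), Becn1 to Nsmf (0.0219), Atg5 to Mlf2 (0.0326) and Atg7 to Gaa (0.0475), the lysosomal acid alpha-glucosidase. Gabarapl2 and Map1lc3a had no gene as near, their closest being Ankrd46 (0.0696) and Arpc1b (0.0718). Within the set the nearest pair was Map1lc3b and Becn1 (0.0566). All profiles share the same libraries and their scaling, so nearness describes shape alone.

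The rest of the pathway was described from 8 lists of 83 further genes in the table, of which 81 were tested. At 10 against 2 months limma called 16 of the 81 higher and 6 lower, where 19% and 11.4% of all tested genes were called. Without single libraries limma called 11 to 20 higher and 5 to 9 lower there. After median-of-ratios scaling it called 13 higher and 12 lower there, beside 15.1% and 14.5%. At 20 against 2 months it called 10 higher and 58 lower, beside 18.6% and 49.6% of all tested genes. After median-of-ratios scaling it called 19 higher and 25 lower there, beside 30.9% and 31.5%. At 20 against 10 months 5 were higher and 54 lower, beside 11.4% and 53.3%, and after that scaling 22 and 24, beside 26.5% and 26%. These shares of all tested genes are the background for the counts in each group that follows. The medians of the 81 changes, 0.03, -0.22 and -0.25, lay beside 0.04, -0.20 and -0.23 for all tested genes.

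**Figure D4:**
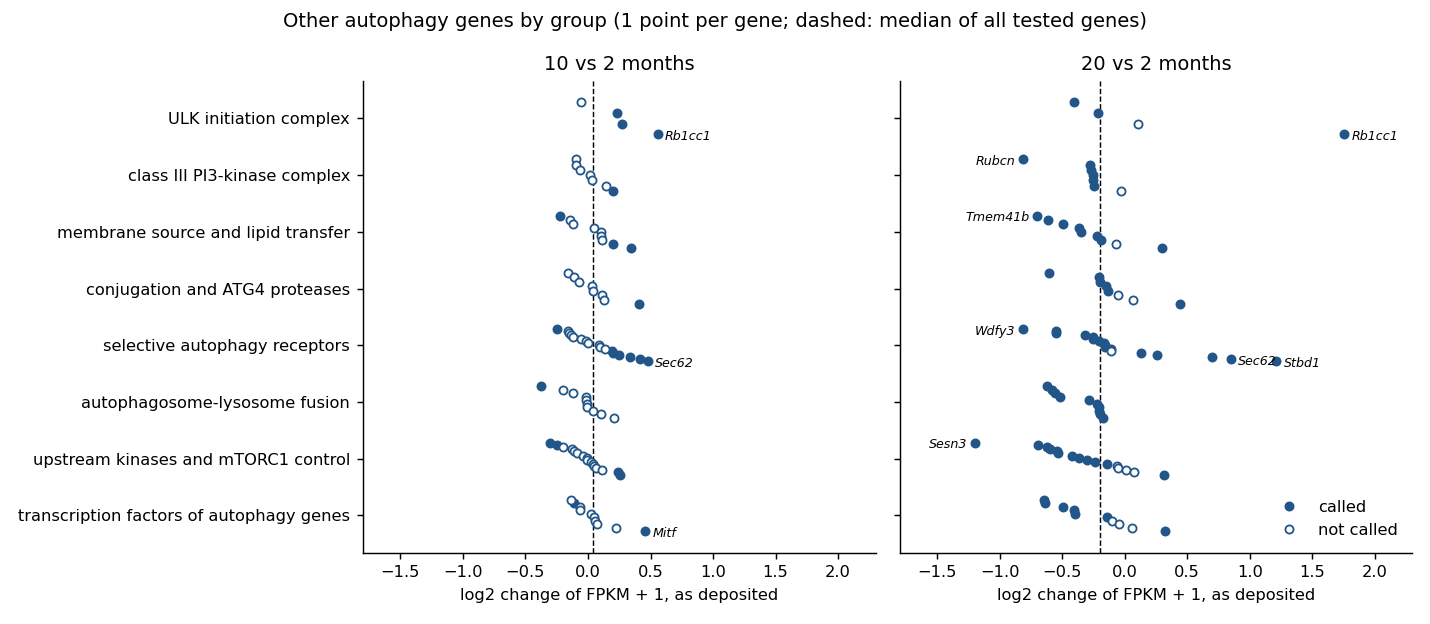
Log2 change of FPKM + 1 as deposited (horizontal axis) of the other tested autophagy genes, 1 point per gene, in 8 groups (vertical axis), at 10 against 2 months (left) and 20 against 2 months (right), filled where limma's adjusted p is under 0.05. Most groups lie around the dashed median of all tested genes, and Rb1cc1 stands far to the right with a log2 change of 1.75 at 20 against 2 months.

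In the ULK initiation complex Rb1cc1, the scaffold FIP200, moved opposite to Ulk1 at 20 months. It had 1.23, 1.35 and 1.20 FPKM at 2 months, 2.18, 2.52 and 2.28 at 10 months, and 6.20, 6.98 and 6.71 at 20 months. No ages overlapped, and the level was highest in the oldest libraries. Its log2 difference was 0.56 ± 0.07 at 10 against 2 months (limma adjusted p = 5.57e-04) and 1.75 ± 0.07 at 20 against 2 months (adjusted p = 1.39e-07), the latter being 1.93 when rescaled by median-of-ratios. Over the 21 alternatives the difference at 20 against 2 months ran from 0.89 to 2.31. Of the 4 tested genes of this complex beside Ulk1, 3 were called higher at 10 against 2 months: Rb1cc1, the paralog Ulk2 and Atg13. The call of Atg13 (limma adjusted p = 0.0465) was lost in 12 of 21 alternatives, among them median-of-ratios scaling (0.0979) and the fits without any one of the 2- and 10-month libraries (up to 0.126). At 20 against 2 months Atg13 (-0.40) and Ulk2 (-0.22) were called lower as deposited, and median-of-ratios scaling removed both calls (adjusted p = 0.0686 and 0.987).

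Among the 7 tested partners of Beclin 1, 6 were called lower at 20 against 2 months as deposited (4 to 6 without single libraries). After median-of-ratios scaling 1 was called lower and 1 higher. The one still lower was Rubcn, Rubicon, which inhibits autophagosome maturation: 24.8 ± 0.54, 23.7 ± 0.49 and 13.7 ± 0.75 FPKM (SD, n = 3 each), a log2 difference of -0.82 ± 0.04 (limma adjusted p = 7.83e-07) and of -0.60 after that scaling. Of 9 tested genes of membrane source and lipid transfer, 1 was called higher (Wdr45, 14, 18 and 17.5 FPKM in order of age) and 7 lower at 20 against 2 months, and 1 higher and 4 lower after scaling. Tmem41b, a lipid scramblase of the endoplasmic reticulum, fell by 0.70 on the log2 scale (limma adjusted p = 6.72e-06) and its partner Vmp1 by 0.49 (adjusted p = 1.50e-05), and both calls held after scaling, at -0.49 and -0.27. Of 8 tested genes of conjugation and its proteases, 1 was called higher and 5 lower at 20 against 2 months (3 lower without 2-month replicate 3), and 2 and 1 after scaling. The share of all tested genes called lower was 49.6% as deposited and 31.5% after scaling. The LC3 protease gene Atg4c fell by 0.61 (limma adjusted p = 8.06e-05), and by 0.41 after scaling, while Atg16l2 rose at 10 against 2 months (0.41, adjusted p = 0.00698) and was higher at 20 than at 2 months (0.44, adjusted p = 0.00149, and 0.62 after scaling). Atg3, the conjugating enzyme that acts after ATG7, was not called in any comparison as deposited (36.2 ± 2.1 FPKM at 20 months against 34.6 ± 0.95 at 2 months). After median-of-ratios scaling it was called higher at 20 against 2 months (0.29, limma adjusted p = 3.06e-04) and at 20 against 10 months (0.20, adjusted p = 0.00365).

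The selective receptors divided. Of 17 tested, 6 were called higher and 1 lower at 10 against 2 months, where 19% and 11.4% of all tested genes were called. The lower count was 2 without 20-month replicate 1 and 3 without 20-month replicate 2 or 3. After median-of-ratios scaling 5 were called higher and 3 lower at 10 against 2 months, beside 15.1% and 14.5% of all tested genes. At 20 against 2 months 5 were called higher and 11 lower, beside 18.6% and 49.6% of all tested genes, and after median-of-ratios scaling 6 and 3, beside 30.9% and 31.5%. Sec62, a receptor for the endoplasmic reticulum, had 38.3, 36.4 and 36.4 FPKM at 2 months, 53.5, 51.1 and 51.3 at 10 months, and 63.6, 74.3 and 65.1 at 20 months. Like Gabarapl1, it stepped up both times with no overlap, with a log2 difference of 0.48 at 10 against 2 months (limma adjusted p = 4.10e-04) and of 0.85 at 20 against 2 months (adjusted p = 2.18e-06), or 1.07 after scaling. Tax1bp1, a ubiquitin-binding receptor, went from 32.7 ± 0.89 over 41.4 ± 1.2 to 53.6 ± 3.9 FPKM, and Stbd1, which binds glycogen, from 1.66 ± 0.05 over 2.56 ± 0.17 to 5.17 ± 0.38 FPKM (SD, n = 3 each). Both were called higher at each step, and at 20 months under both scalings. Bnip3, a mitophagy receptor induced by low oxygen, was the most abundant receptor named here, with 728, 788 and 735 FPKM at 2 months, 628, 628 and 639.8 at 10 months, and 695, 662 and 654 at 20 months. It was lower in all 10-month libraries, with a log2 difference of -0.25 (limma adjusted p = 0.00157). Wdfy3, the scaffold nearest to Ulk1 in profile, fell at 20 against 2 months by 0.81 (limma adjusted p = 3.00e-06), and by 0.61 after scaling.

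All 10 tested genes of autophagosome-lysosome fusion were called lower at 20 against 2 months as deposited, 7 to 10 of them when single libraries were left out, and 4 after median-of-ratios scaling. The share of all tested genes called lower was 49.6% and, after scaling, 31.5%. Plekhm1, an adaptor on the lysosome side of the fusion, went from 5.36 ± 0.08 to 3.26 ± 0.12 FPKM at 2 and 20 months (SD, n = 3 each), a log2 difference of -0.58 (limma adjusted p = 2.01e-05). The SNARE gene Ykt6 fell by 0.56 (limma adjusted p = 2.19e-05), and both calls held after scaling, at -0.40 and -0.34. Of 16 tested upstream kinases and regulators of mTORC1, 11 were called lower and 1 higher at 20 against 2 months, and 8 and 4 after scaling. Sesn3, a stress-induced inhibitor of mTORC1, had 28.4, 27.2 and 28.2 FPKM at 2 months, 24.0, 21.7 and 21.7 at 10 months, and 11.9, 10.7 and 12.2 at 20 months. It stepped down both times with no overlap, by 0.30 at 10 against 2 months (limma adjusted p = 0.00448) and by 1.20 at 20 against 2 months (adjusted p = 3.82e-07), the latter being 0.99 after scaling. Mtor itself fell by 0.54 at 20 against 2 months (limma adjusted p = 1.10e-05), with transcripts of an inhibitor, Akt1s1, falling by 0.60 (adjusted p = 2.71e-06). After scaling Mtor fell by 0.35 and Akt1s1 fell by 0.38, and both calls held.

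Of 10 transcription factors of autophagy genes, 1 was called higher and 6 lower at 20 against 2 months, and 3 and 4 after median-of-ratios scaling. The relatives Mitf, Tfeb and Tfe3, which bind the E-box sought above, did not move together. Mitf had 12.2, 12.9 and 13.2 FPKM at 2 months, 17.7, 18.1 and 17.9 at 10 months, and 17.2, 14.9 and 16.5 at 20 months. Its 2-month libraries were the lowest 3, with a log2 difference of 0.46 at 10 against 2 months (limma adjusted p = 4.48e-04) and of 0.32 at 20 against 2 months (adjusted p = 7.54e-04), or 0.53 after scaling. Tfeb went from 5.79 ± 0.35 to 3.83 ± 0.15 FPKM between 2 and 20 months and Tfe3 from 13.3 ± 0.36 to 8.17 ± 0.83 FPKM (SD, n = 3 each), log2 differences of -0.49 (limma adjusted p = 2.15e-04) and -0.64 (adjusted p = 2.08e-05). Both calls held after median-of-ratios scaling, at -0.31 and -0.44. Hif1a, the oxygen-regulated factor of the disc, fell by 0.41 at 20 against 2 months (limma adjusted p = 1.33e-05), and by 0.18 after that scaling (adjusted p = 0.00321).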

How the data were processed

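The deposited gene table holds FPKM for the 9 input libraries, and the deposited isoform table holds FPKM and read coverage (a signal not scaled for depth), per the file headers. Tools listed in the submitters' processing notes are StringTie 1.3.4d, HISAT2 2.0.4, cutadapt 1.9, edgeR and DESeq2, with no roles. The sources used here give neither build nor strandedness, so antisense partners cannot be told apart. The values are not counts, and bases per library came from FPKM over coverage.

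All tests used limma 3.58.1 (R 4.3.3, trended empirical Bayes) on log2(FPKM + 1), which understates changes of low genes. The 11708 genes reaching an FPKM of 1 in 3 or more libraries entered 1 fit over the 3 ages. Calls are Benjamini-Hochberg adjusted p under 0.05 over all tested genes. The fitting code was tested on simulated data. Isoform use was tested on the log2 ratio of an isoform to the rest of its gene, each plus 0.5, for genes with a summed FPKM of at least 5 and shares of 10 to 90%. Replicates correlated at 0.984 to 0.993, and no 2 libraries were identical. Replicates differed more at 20 months. A chi-square of estimated fragments between 2 replicates had a median over genes of 0.551 to 0.662 at the younger ages and 1.29 to 1.49 at 20 months. The fit took 1 spread per gene for all 3 ages, so tests of 10 against 2 months include the spread at 20 months. Samples with the same replicate number did not deviate together (correlations -0.04 to 0.0491). No pairing by number was thus seen, though 3 libraries per age cannot exclude it.

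Named pathway genes are up to 3 called genes per list and comparison with the smallest adjusted p, less telling ones left out. Atg3 was named after its values were seen. The members and lists were chosen with earlier results of these data known. Alternatives were other pseudocounts, filters and scalings, fits of 2 ages, array weights, no trend, a replicate block and fits without single libraries. Some results are not reported here.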

Additional observations from a re-analysis of the deposited data

How the results depend on the processing

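The counts of called genes of the set stayed within 1.5 times of those reported in all 83 counts from the alternatives. These are totals, which ignore direction and which genes were called. At 20 against 2 months median-of-ratios scaling moved 1 higher and 6 lower to 3 higher and 3 lower. Without single libraries they were 3 to 4 at 10 against 2 months, 7 to 8 at 20 against 2 months, 6 to 7 at 20 against 10 months and 7 to 9 for any age difference. With a replicate block they were 3, 7, 6 and 7, Map1lc3a losing its call at 20 against 10 months, and the block changed no count by over 1.5 times. Of the refitted log2 changes of the 10 genes, 587 kept direction and side of the threshold and 16 reversed. With direction kept, 10 lost the call and 14 gained it. A reversed change that also lost or gained a call, such as Becn1 at 20 against 2 months, was counted as reversed only. Median-of-ratios scaling reversed Ulk1 at 10 against 2 months (-0.027), and Map1lc3a (0.039) and Becn1 (0.071) at 20 against 2 months. At 20 against 10 months it reversed Gabarapl2 (0.18), Map1lc3b (0.064), Sqstm1 (0.19), Becn1 (0.12) and Atg7 (0.090). Outside the set it reversed Atg4b at 20 against 2 months (0.011) and at 20 against 10 months (0.0035). Quantile normalization reversed Becn1 at 20 against 2 months (0.0079) and Gabarapl2 (0.036), Becn1 (0.045) and Atg7 (0.13) at 20 against 10 months. Scaling to a fixed sum reversed Ulk1 at 10 against 2 months (-0.0065), whose values without single libraries were -0.015 to 0.034, and those of Becn1 were -0.019 to 0.0075. The cause was not tested, beyond that median-of-ratios scaling brings the median change of all genes to about 0. Each gene of the set had 1 row, so summing rows of a name gave no value, and Atg7 had none under the filter at 5 FPKM. The number of fragments, 119 to 264 per library for Atg7, limits what can be seen of the lowest genes, and groups of 3 samples were not checked for single outlying values.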

Other observations

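The autophagy term of the KEGG database as written in the gene table held 124 genes, of which 67 tested ones were in no list above. It was chosen after the data were seen. At 10 against 2 months limma called 9 of these 67 higher and 13 lower, and at 20 against 2 months 10 higher and 40 lower, or 20 and 29 after median-of-ratios scaling. Of all tested genes 19% were called higher and 11.4% lower in the first comparison, 18.6% and 49.6% in the second, and 30.9% and 31.5% in the second after scaling. The following genes were also picked after their values were seen. Irs2, an adaptor of the insulin receptor, had 3.21 ± 0.14, 6.09 ± 0.19 and 8.15 ± 0.65 FPKM at 2, 10 and 20 months (SD, n = 3 each), with a log2 difference of 0.75 at 10 against 2 months (limma adjusted p = 7.2e-05) and of 1.119 at 20 against 2 months (adjusted p = 9.06e-07, and 1.31 after scaling). Tp53inp2, which encodes a positive regulator of autophagosome formation, went the other way, with 11.3 ± 0.52, 8.01 ± 0.34 and 4.97 ± 0.99 FPKM and a log2 difference of -1.06 at 20 against 2 months (limma adjusted p = 1.96e-05, and -0.86 after scaling). Rras, a small GTPase, had 136 ± 0.88, 110.0 ± 4.8 and 52.7 ± 8.1 FPKM, a log2 difference of -1.36 (limma adjusted p = 2.22e-06, and -1.14 after scaling). The lysosomal protease gene Ctsl was lowest at 10 months, with 606 ± 19.9, 514 ± 7.73 and 691 ± 41.8 FPKM, a log2 difference of -0.24 at 10 against 2 months (limma adjusted p = 0.00459).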
